A study of Rattus norvegicus with 3 samples.

Results

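Epor and 7 genes of erythroid differentiation (Gata1, Klf1, Alas2, Slc4a1, Rhag, Hemgn and Epb42) were followed in single-cell libraries made from the rat mandibular condyle, its cartilage together with the bone beneath. The genes were taken by name from the deposited cluster tables. Of these 8 genes 7 were measured in all 3 libraries, and Gata1 was not analysed here. Erythropoietin binds its receptor, encoded by Epor, on erythroid progenitors and sustains their survival through JAK2 and STAT5. Klf1 is a transcription factor that switches on red cell genes, and Alas2 catalyses the first step of haem synthesis in erythroid cells. Slc4a1 (band 3), Rhag and Epb42 (protein 4.2) belong to the red cell membrane, and Hemgn is a nuclear protein of differentiating erythroid cells. Subchondral bone encloses marrow, where red cells are made.

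The study compared 3 groups of wild-type SD rats, each with an AAV injection into the temporomandibular joint. The Control group was sham-treated and received Vector AAV. The UAC group had unilateral anterior crossbite (UAC), a dental change that alters the load on the joint, and Vector AAV, and the UAC_treatment group is labelled as UAC treatment. The design text names miR-330 AAV with UAC as the remaining group, while the library label itself does not name the vector. Each library pooled 16 condyles, or 8 rats of the 24 in the series, so there was 1 library per condition and no replicate check. The ages of the rats were not given in the sources used here. Because the libraries hold no replicates, no test between conditions was made and no p-values are given. The Control, UAC and UAC_treatment libraries held 77668015, 92629658 and 97255383 UMIs (counts of RNA molecules told apart by their tags) in 15, 18 and 19 clusters. Levels are UMIs per 1000000 UMIs of a library or cluster (CPM) with exact Poisson 95% intervals, shares have exact binomial 95% intervals, and ratios have exact conditional binomial 95% intervals. All of them cover counting error only.

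The labelled cell types were chondrocytes and osteoclasts, and these were set against their markers. In Control cluster 12, UAC cluster 16 and UAC_treatment cluster 17, 13, 14 and 15 of 16 chondrocyte markers were enriched (at least 50 CPM and at least 2-fold over the rest of the library). In the same clusters 6, 7 and 6 of 9 osteoblast markers were enriched, with sums of 71545, 60618 and 60816 CPM against 62377, 49333 and 64569 CPM for the chondrocyte markers, as were 4 of 7 fibroblast markers in each. The term chondrocyte-marker cluster below is therefore a label for mixed clusters. No cluster of any library had more than 3 osteoclast markers enriched. Of clusters with 3, UAC cluster 8 and UAC_treatment cluster 6 also had 6 of 14 neutrophil markers enriched. UAC cluster 17, likewise with 3, had 9 of 10 T and NK markers enriched. No cluster was named from osteoclast markers, although 3 markers suffice for the erythroid-marker clusters below. In the cluster with the most macrophage markers of each library, 0 osteoclast markers met this rule, and in Control the osteoclast markers with many UMIs lay mostly elsewhere. Of these Acp5 had 518 of its 11610 UMIs there in Control and Ctsk 16 of 1857. Among low transcripts Oscar had 75 of 150 there, Tnfrsf11a 41 of 96 and Atp6v0d2 8 of 72. In UAC this cluster held 186 of 392 Oscar and 63 of 92 Atp6v0d2 UMIs, and in UAC_treatment 188 of 361 Oscar UMIs. Acp5, Ctsk, Nfatc1, Mmp9 and Itgb3 lay mostly elsewhere in these libraries too. Whether the macrophage-marker clusters hold cells of the osteoclast lineage was not tested. Dcstamp, which fusing precursors need, had 0, 2 and 0 UMIs in the whole libraries, too few to place it.

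Epor was a low transcript in every library. It reached 2.33 CPM (upper limit 2.70) in Control from 181 UMIs, 2.43 CPM (2.12 to 2.77) in UAC from 225 UMIs and 3.40 CPM (3.05 to 3.79) in UAC_treatment from 331 UMIs. The Control and UAC intervals overlapped, and that of UAC_treatment lay above both. In a tissue pool of this kind, fewer cells of a type and less RNA per cell cannot be told apart. Klf1 stood at 8.19, 10.4 and 14.6 CPM in Control, UAC and UAC_treatment. Slc4a1 stood at 6.45, 6.83 and 14.8 CPM, and Rhag at 5.51, 7.59 and 10.97 CPM. Alas2 took another course, with 13.9, 3.47 and 15.7 CPM. Hemgn reached 2.38, 2.99 and 6.55 CPM, and Epb42 1.88, 2.53 and 4.22 CPM.

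Erythroid-marker clusters were found from 25 erythroid markers in the tables, none of them a member. A cluster was taken where at least 3 of these reached 50 CPM and 2-fold over the rest of its library. This gave clusters 13 and 14 in Control, 11 and 13 in UAC, and 5 and 11 in UAC_treatment. Control cluster 13, UAC cluster 11 and UAC_treatment cluster 11 had all 13 cell cycle markers in the tables enriched. They are called the cycling clusters here, a name that sets them apart only from the other erythroid-marker clusters. Cell cycle markers summed to 3332 CPM in Control cluster 13 but to 4208 CPM in Control cluster 3, outside this group. In UAC they summed to 3225 CPM in cluster 11 and to 4092 CPM in cluster 5, also outside it. Enriched erythroid markers of the cycling clusters numbered 4, 7 and 9, with Car1 and Ahsp among them in each. The cycling clusters also carried B lineage RNA. Over 13 B markers it summed to 7271, 6560 and 7172 CPM, led by Ebf1 at 4062, 3924 and 4879 CPM, with none of the B markers at 0. Their part in the results was not tested.

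The second cluster of each library was the one highest in globin RNA among its erythroid-marker clusters. Globins summed to 74934 CPM in Control cluster 14 and 68537 CPM in UAC_treatment cluster 5, but to 10003 CPM in UAC cluster 13. These clusters were of mixed content and stay unnamed. The leading genes of UAC cluster 13 included the mast cell proteases Tpsab1, Cpa3 and Mcpt10, its mast cell and basophil markers summed to 15299 CPM over 15 genes, and its only enriched erythroid markers were the globins Hba-a1, Hba-a2 and Hbb. In Control cluster 14 these mast cell markers summed to 8844 CPM and in UAC_treatment cluster 5 to 942 CPM, and Mcpt10 was the most abundant of them in all 3. Igh-6, an immunoglobulin gene, was a leading gene of all 3 clusters. The clusters were made in each library alone, so they need not hold the same cells. The part of these other cell types in the results was not tested.

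The paper places EPOR mainly in macrophage-osteoclasts, after its own clustering. It also reports EPOR protein by staining in CTSK-positive osteoclasts of mouse knees, and EPOR RNA and protein in mouse bone marrow-derived macrophages. No deposited cluster was named from osteoclast markers, so the deposited clusters cannot show the level of Epor in osteoclasts. In the deposited clusters Epor lay mainly in the cycling clusters. They held 65.7% (58.3 to 72.6) of its UMIs in Control, 87.6% (82.5 to 91.6) in UAC and 87.6% (83.6 to 91.0) in UAC_treatment. Of all UMIs the cycling clusters held 14.6%, 14.9% and 15.8%. Together with the globin-high clusters the shares of Epor came to 74.6%, 93.3% and 92.7%, against 16.6%, 18.5% and 18.7% of all UMIs. In Control the level of Epor was 10.5 CPM (8.70 to 12.6) in cluster 13 and 10.3 CPM (5.90 to 16.8) in cluster 14, which were not apart, and Control cluster 15 followed at 3.25 CPM (1.62 to 5.81). In UAC the order ran from cluster 11 at 14.3 CPM (12.4 to 16.5) to cluster 13 at 3.80 CPM (2.02 to 6.50), which were apart. In UAC_treatment it ran from cluster 11 at 18.9 CPM (16.8 to 21.2) to cluster 5 at 5.99 CPM (3.49 to 9.60), again apart. The next cluster in UAC and in UAC_treatment was not apart from the second.

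**Figure D1:**
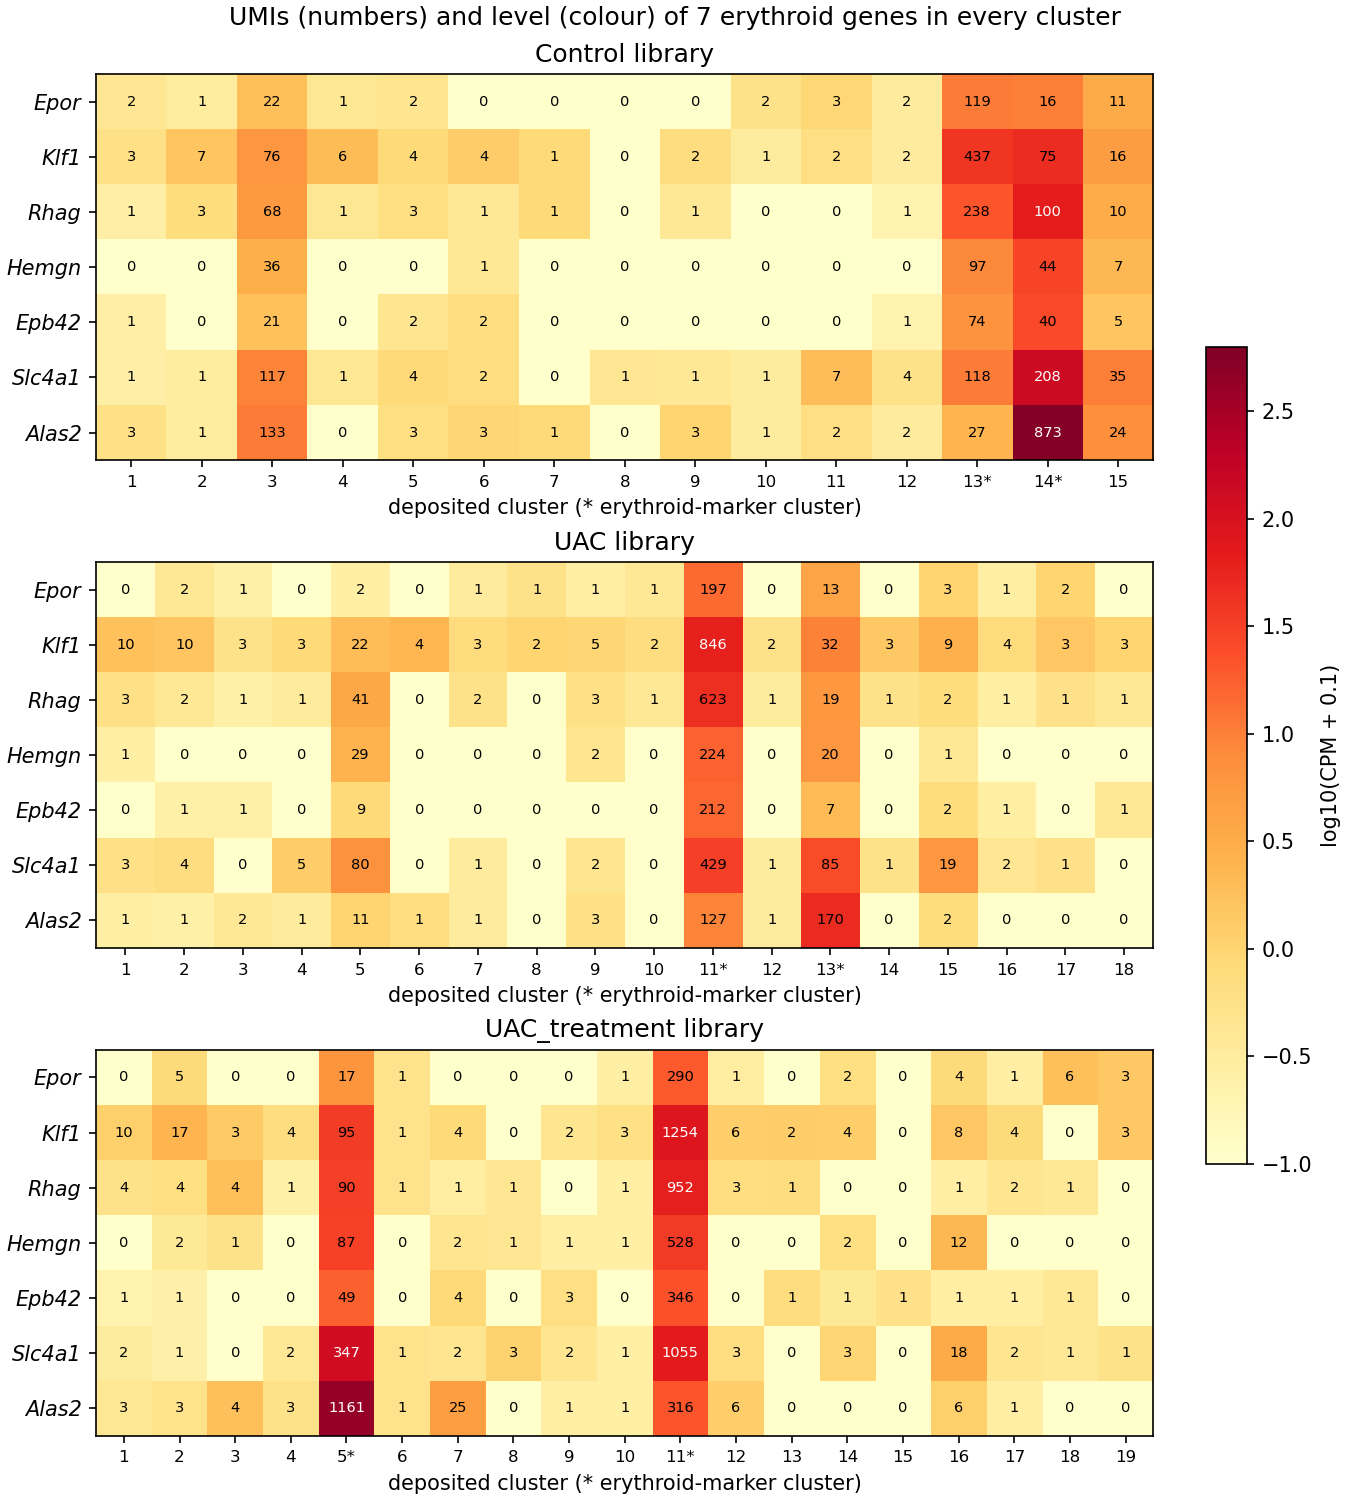
Each cell gives the UMIs of a gene in a deposited cluster, and the colour gives log10(CPM + 0.1), in 3 panels for the 3 libraries. Epor has its highest CPM in the cycling clusters 13, 11 and 11, and Alas2 in clusters 14, 13 and 5.

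The other members divided between the 2 kinds of cluster in different ways. These kinds differed in size, with 14.6%, 14.9% and 15.8% of all UMIs in the cycling clusters of Control, UAC and UAC_treatment. The globin-high clusters held 1.99%, 3.69% and 2.92%. Klf1 was distributed like Epor, with 68.7%, 87.6% and 88.3% of its UMIs in the cycling clusters of Control, UAC and UAC_treatment. Rhag, which forms the Rh complex of the membrane, had 55.6%, 88.6% and 89.2% there. Of the members Alas2 had the lowest shares in the cycling clusters, at 2.51% (1.66 to 3.63), 39.6% (34.2 to 45.1) and 20.6% (18.6 to 22.8), and 81.1%, 53.0% and 75.8% in the globin-high clusters. Slc4a1 stood between them, with 23.6%, 67.8% and 73.1% in the cycling clusters. Hemgn and Epb42 had 52.4% and 50.7% in Control and 80.9% to 90.6% in the other libraries. Within Control, Alas2 was 563 CPM in cluster 14 against 2.38 CPM in cluster 13, and Slc4a1 was 134 against 10.4 CPM. Rhag (64.5 against 21.0 CPM), Hemgn (28.4 against 8.56 CPM) and Epb42 (25.8 against 6.53 CPM) were also higher in cluster 14, with intervals apart, though the larger part of their UMIs lay in the larger cluster 13.

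Outside the erythroid-marker clusters Epor was near the floor in most clusters. Control cluster 3, whose cell cycle markers were enriched and whose B markers summed to 10579 CPM, held 22 Epor UMIs at 1.72 CPM (1.08 to 2.60), together with 76 of Klf1, 117 of Slc4a1 and 133 of Alas2. UAC cluster 5, also enriched in cell cycle markers and with B markers at 11802 CPM, held 2 Epor UMIs at 0.167 CPM (0.020 to 0.602). Beside them lay 22 UMIs of Klf1, 80 of Slc4a1 and 11 of Alas2. Of such clusters in UAC_treatment, cluster 16 held 4 Epor UMIs and cluster 12 held 1. The macrophage-marker cluster of Control, cluster 15, held 11 Epor UMIs, along with 16 of Klf1, 35 of Slc4a1 and 24 of Alas2. The macrophage-marker clusters of UAC and UAC_treatment held 1 Epor UMI each, at 0.170 CPM (0.0043 to 0.950) and 0.167 CPM (0.0042 to 0.931). In UAC_treatment cluster 18, rich in neutrophil granule genes such as Prtn3 and Elane and with 9 of 15 mast cell and basophil markers enriched (10903 CPM in sum), there were 6 Epor UMIs and 0 Klf1 UMIs, at 1.72 CPM (0.632 to 3.75) for Epor. Epor UMIs in the chondrocyte-marker clusters numbered 2 in Control, 1 in UAC and 1 in UAC_treatment, at 0.222, 0.167 and 0.170 CPM, all below the upper limit that a count of 0 allows (0.333, 0.502 and 0.510 CPM). A difference of Epor between the conditions in those clusters was not detectable at this depth. Transcripts of a cluster's own cells, of doublets and of RNA free in the droplets cannot be told apart in such small counts.

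The comparison of UAC with Control asked what the crossbite changed. Alas2 was lower in UAC, at 3.47 CPM (3.10 to 3.87) against 13.9 CPM (13.0 to 14.7), a log2 ratio of -2.00 (-2.18 to -1.82). It was the only member past the call used here, which needed at least a 1.5-fold difference and Poisson intervals that did not overlap. Thus 1 of 7 members was called lower, where 5.11% of 14235 genes (those with 50 UMIs or more when the pair of libraries is added) were called lower, and 0 of 7 were called higher, where 6.06% were. Epor had a log2 ratio of 0.06 (-0.23 to 0.35) and Slc4a1 of 0.08 (-0.09 to 0.26). Klf1, Rhag, Hemgn and Epb42 lay at 0.35, 0.46, 0.33 and 0.43, below the fold of the call.

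In the erythroid-marker clusters of UAC and Control together, Alas2 had a log2 ratio of -2.01 (-2.21 to -1.82) and was again the only member called, 1 of 7 lower against 1.68% of 10841 genes and 0 of 7 higher against 4.44%. Under the cluster rule without globins, which drops UAC cluster 13, Klf1 (0.63), Rhag (0.79) and Epb42 (0.80) were called higher, and Alas2 stood at -2.92. The count of 0 thus depended on the rule. No share over all genes is given for that rule, so these calls cannot be set against one. In the cycling clusters alone, an alternative chosen after the data were seen, Alas2 was higher in UAC, with a log2 ratio of 1.95 (1.35 to 2.61) from 27 and 127 UMIs. In those clusters Slc4a1 was at 1.58 (1.29 to 1.89), Epb42 at 1.24 (0.85 to 1.64) and Rhag at 1.11 (0.89 to 1.33), with Hemgn at 0.93 (0.58 to 1.29) and Klf1 at 0.67 (0.50 to 0.84). Epor, at 0.45 (0.11 to 0.79), did not reach the call. In these clusters 6 of 7 members were thus called higher, against 4.83% of 10451 genes, and 0 of 7 lower, against 0.861%. The content of these clusters differed as well. Non-globin erythroid markers summed to 1148 CPM in Control and 2056 CPM in UAC, and neutrophil markers to 969 and 1870 CPM. Mast cell and basophil markers summed to 321 and 133 CPM, and eosinophil markers to 111 and 8.07 CPM. The part of these differences in the result was not tested. Over the whole libraries the adult globins Hba-a1 and Hba-a2 were lower in UAC as well. Hba-a1 had 1247 CPM in Control and 437 CPM in UAC, and Hba-a2 had 549 and 161 CPM, a log2 ratio of -1.77 (-1.80 to -1.75). Hba-a1 went the other way in the cycling clusters, from 263 CPM in Control to 1001 CPM in UAC.

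UAC_treatment was compared with UAC to ask what the treatment changed under the same crossbite. Here 4 of 7 members were called higher, against 9.97% of 14485 genes, and 0 of 7 lower, against 2.92%. Alas2 rose from 3.47 to 15.7 CPM, a log2 ratio of 2.18 (2.01 to 2.36). Hemgn rose by 1.13 (0.93 to 1.34), Slc4a1 by 1.12 (0.98 to 1.26) and Epb42 by 0.74 (0.50 to 0.98) on the same scale. Epor, at 0.49 (0.24 to 0.74), and Klf1, at 0.49 (0.37 to 0.60), had intervals apart from 0 but did not reach 1.5-fold, and Rhag was at 0.53 (0.39 to 0.67). The median over genes with at least 50 UMIs in each library was 0.13 higher in UAC_treatment, and relative to that shift Epor lay at 0.36 (0.11 to 0.61), Klf1 at 0.36 and Alas2 at 2.06. The 2 comparisons share the UAC library.

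In the erythroid-marker clusters of UAC_treatment against UAC, 5 of 7 members were called higher, where 14.8% of 11232 genes were, and 0 of 7 lower, where 3.07% were. Alas2 stood at 2.23 (2.05 to 2.42), Slc4a1 at 1.37 (1.22 to 1.52), Hemgn at 1.25 (1.04 to 1.47), Epb42 at 0.77 (0.53 to 1.02) and Rhag at 0.62 (0.48 to 0.76). Epor at 0.47 (0.21 to 0.73) and Klf1 at 0.54 (0.42 to 0.66) were not called. In the cycling clusters alone 3 of 7 members (Alas2, Slc4a1 and Hemgn) were called higher, against 11.9% of 10808 genes, and 0 of 7 lower, against 2.28%. The calls of Rhag, at 0.46 there, and Epb42, at 0.55, thus depended on the clusters taken, and both were also not called under the cluster rule without globins (0.34 and 0.50). Epor and Klf1 had 0.40 and 0.41 in the cycling clusters. Under the cluster rule without globins Epor was at 0.24 (-0.02 to 0.51), an interval that includes 0, and Klf1 at 0.27 (0.15 to 0.40). Cell cycle markers summed to 3225 CPM in UAC cluster 11 and 4163 CPM in UAC_treatment cluster 11, with Mki67 at 548 and 1185 CPM. Macrophage and monocyte markers summed to 117 and 212 CPM, neutrophil markers to 1870 and 1120 CPM, and megakaryocyte and platelet markers to 92.4 and 35.7 CPM. The part of these differences in the result was not tested.

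**Figure D2:**
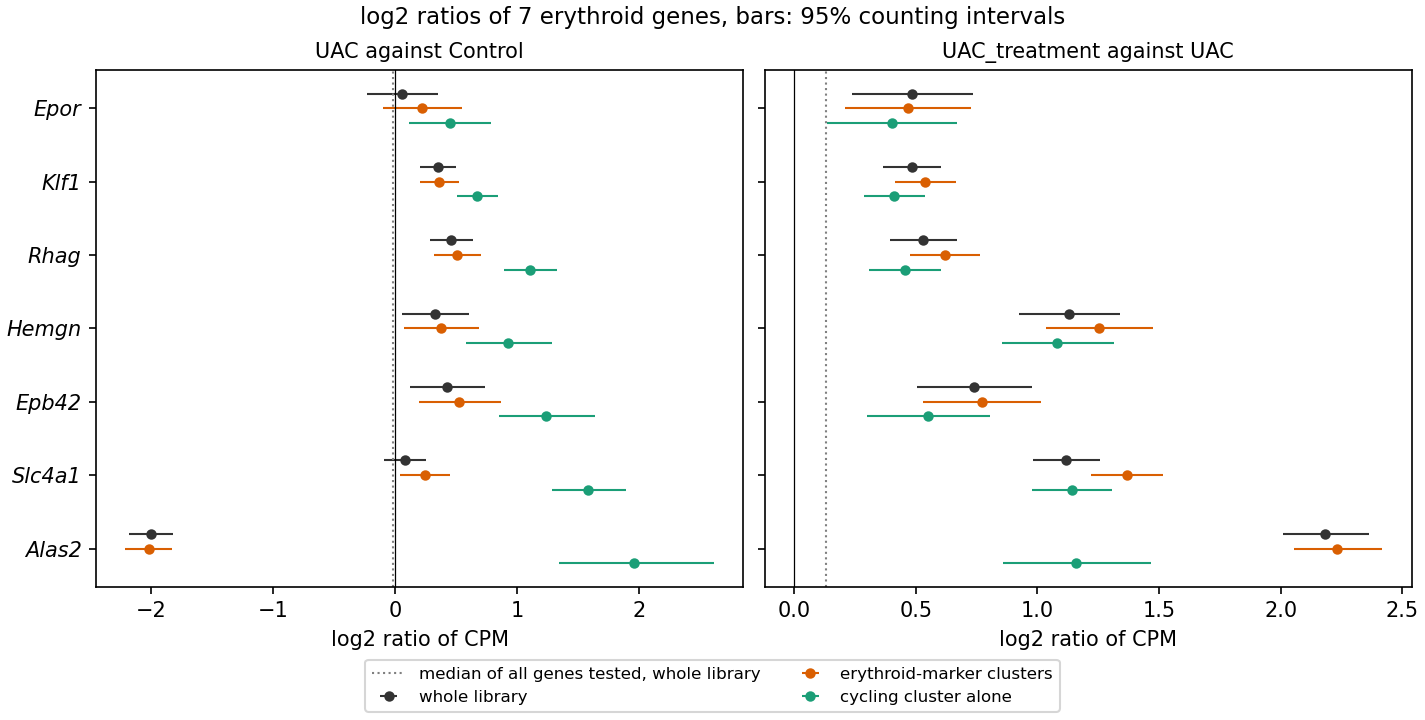
Points are log2 ratios of CPM for 7 genes, with bars for 95% counting intervals, in whole libraries (black), erythroid-marker clusters (orange) and cycling clusters alone (green), for UAC against Control on the left and UAC_treatment against UAC on the right. Alas2 changed side in the left panel between -2.00 in whole libraries and 1.95 in the cycling clusters.

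Epor was next set against the other members within each library, a ratio that does not depend on the number of erythroid cells where the genes lie in the same cells. Per 1000 Klf1 UMIs there were 285 Epor UMIs in Control (240 to 336), 233 in UAC (201 to 270) and 233 in UAC_treatment (206 to 263), and these intervals overlapped. In the cycling clusters the ratios were 272, 233 and 231, with overlapping intervals as well. Whole-library Epor per 1000 Rhag UMIs was 423 (353 to 504), 320 (274 to 372) and 310 (273 to 351) for Control, UAC and UAC_treatment. There the interval of UAC_treatment lay below that of Control. In the cycling clusters it was 500 (398 to 626), 316 (268 to 372) and 305 (266 to 348), with Control above both others. Epor per 1000 Epb42 UMIs there was 1608 (1193 to 2180), 929 (761 to 1134) and 838 (715 to 983), again with Control above. Against Hemgn the whole-library ratio was 978, 812 and 520, and against Alas2 it was 168, 701 and 216. Against Slc4a1 it was 361, 355 and 229, and against Epb42 1240, 962 and 807. Per 1000 UMIs of the non-globin erythroid markers Epor had 6.44 (5.54 to 7.46), 5.48 (4.78 to 6.24) and 6.52 UMIs (5.83 to 7.26).

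Slc4a1 and Alas2 moved apart from Klf1 in the cycling clusters, a choice of clusters made after the data were seen. Slc4a1 had 270 UMIs per 1000 Klf1 UMIs in Control (218 to 332), 507 in UAC (450 to 570) and 841 in UAC_treatment (774 to 914), and no pair of these intervals overlapped. Alas2 followed the same order with 61.8 (40.3 to 91.2), 150 (124 to 181) and 252 (222 to 285). Hemgn had 222 (176 to 277), 265 (227 to 307) and 421 (380 to 466), of which only the last lay apart. The other membrane members differed less: Rhag had 545 (463 to 639), 736 (663 to 818) and 759 (697 to 827), where UAC and UAC_treatment overlapped. Epb42 had 169 (131 to 217), 251 (215 to 292) and 276 (244 to 311), where UAC overlapped with each of the others. Over all clusters the order of Alas2 was another, with 1692, 332 and 1078 UMIs per 1000 Klf1 UMIs. Slc4a1 also lost its order over all clusters, with 788 (699 to 887), 655 (592 to 725) and 1017 (944 to 1095), UAC being lowest.

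**Figure D3:**
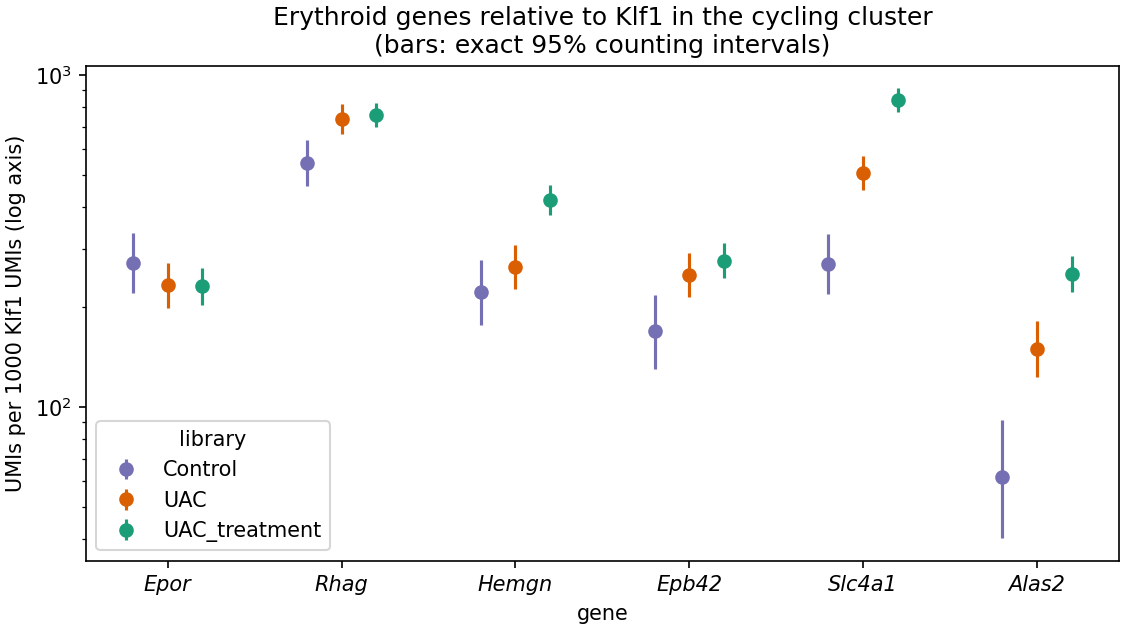
Points are UMIs of 6 genes per 1000 Klf1 UMIs in the cycling cluster of each library on a log axis, with bars for exact 95% intervals. Epor stayed between 231 and 272, while Slc4a1 ran from 270 in Control to 841 in UAC_treatment, an order not kept over all clusters.

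The list counts below are over whole libraries, until other clusters are named, and stand against shares over all genes of 6.06% higher and 5.11% lower in UAC against Control, and 9.97% higher and 2.92% lower in UAC_treatment against UAC. The lists hold the members as well, so their counts partly repeat the member results. Epor is in EPO receptor signalling, Klf1 among the transcription factors and Alas2 in haem and iron. Slc4a1, Rhag and Epb42 are in membrane and skeleton, and Hemgn is in late maturation. Some genes, such as Kit, Gata2 and Car1, stand on several lists. The genes of EPO receptor signalling were mostly not called, and in UAC against Control the median of this list is the ratio of Epor itself. Of 27 tested, 2 were called higher and 0 lower in UAC against Control, with a median log2 ratio of 0.06 against -0.02 over all genes, and 1 higher and 0 lower in UAC_treatment against UAC, with a median of 0.23 against 0.13. Those called in the first were Kit, the stem cell factor receptor of progenitors (3.91 to 6.79 CPM, log2 ratio 0.79), and the cytokine receptor chain Csf2rb (2.12 to 3.31 CPM, 0.64), and in the second Irs2 (30.6 to 46.5 CPM, 0.60). Relative to the shift of the median Irs2 was at 0.47 and not called. Lyn, Grb2 and Gab2, with the most UMIs of this list, lay at 1018, 397 and 157 CPM in Control. The ligand gene Epo was not analysed here.

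Erythroid transcription factors had 3 of 19 genes called higher (15.8%, against 6.06% and 9.97% of all genes) and 0 lower in each comparison, with medians of 0.16 and 0.23. Gata2, a factor of early progenitors and mast cells, went from 4.69 CPM in Control to 9.62 in UAC (log2 ratio 1.04), Gfi1b from 4.33 to 7.06 (0.71) and Nfe2 from 16.9 to 25.8 (0.61). In UAC_treatment against UAC, Tal1, a partner of GATA factors, was higher (4.63 to 8.53 CPM, 0.88), as were Foxo3 (0.79) and Cbfa2t3 (0.62), the last of which was at 0.50 and not called relative to the shift. Of the 891 Gata2 UMIs of UAC, 444 lay in the cycling cluster 11 and 280 in cluster 13, where mast cell markers were abundant. Runx1, Ikzf1 and Myb had the most UMIs of this list, at 486, 407 and 306 CPM in Control.

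Of the globins and their chaperone 5 of 6 tested genes were lower in UAC and 0 higher, with a median log2 ratio of -1.72, and in UAC_treatment 4 of 5 were higher and 0 lower, with a median of 2.13. Hbb rose from 10.2 to 84.2 CPM between UAC and UAC_treatment, a log2 ratio of 3.05 (2.95 to 3.15), and Hba-a3 by 2.85. Hba-a3 stood at -2.35 in UAC against Control. Ahsp, which stabilises free alpha globin, was at 61.0, 74.4 and 82.0 CPM and was called in neither comparison. Hbe1, an embryonic globin, had 319 UMIs in Control, 306 of them in cluster 13 and 0 in cluster 14, against 8 UMIs in UAC and 13 in UAC_treatment. Its log2 ratio of UAC to Control was -5.57 (-6.80 to -4.58).

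Haem synthesis and iron genes had 0 of 24 higher and 1 lower in UAC, which was Alas2, with a median of -0.02, and 2 higher and 0 lower in UAC_treatment, with a median of 0.24. Beside Alas2 the gene called over whole libraries in UAC_treatment was Fam210b, a mitochondrial protein of erythroid haem synthesis (8.66 to 14.4 CPM, 0.74). Tmem14c, Glrx5 and Tfrc had the most UMIs, with Tfrc, the transferrin receptor, at 39.5, 48.1 and 60.5 CPM.

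Membrane and skeleton genes had 1 of 20 called higher and 0 lower in UAC, with a median of 0.29, where Dmtn went from 1.27 to 2.13 CPM (0.74). In UAC_treatment against UAC 10 of 20 were higher and 0 lower, with a median of 0.60. Add2, an adducin of the spectrin skeleton, had a log2 ratio of 1.71 and Kel, a blood group protein, one of 1.22. Epb41, Slc2a1 and Tspan33 had the most UMIs of this list.

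Late maturation genes had 3 of 25 higher and 1 lower in UAC, with a median of 0.05, and 3 higher and 0 lower in UAC_treatment, with a median of 0.17. The carbonic anhydrases Car1 (84.1 to 152 CPM, 0.86) and Car2 (0.72) were higher in UAC with Slc14a1 (0.90), and Ube2l6 was lower (-0.64). Hemgn and Trim10 (1.11) were among those higher in UAC_treatment. Gpx1, Prdx2 and Bnip3l had the most UMIs. Early and progenitor genes had 3 of 14 higher and 0 lower in UAC, namely Gata2, Car1 and Kit, with a median of 0.23. In UAC_treatment 1 was higher, the lactate carrier Slc16a1 (0.64, or 0.51 and not called relative to the shift), and 1 lower, Hmgn5 (-0.61), with a median of -0.03. Myb, Car1 and Cdca7 had the most UMIs of that list. Of the stress erythropoiesis factors 3 of 21 were higher and 1 lower in UAC, with a median of 0.08. These were Fst (1.10), Kit and Inhba (0.73), and the lower one Hhip (-1.03). In UAC_treatment 1 of 22 was higher, Epas1 (0.67, or 0.54 and not called relative to the shift), and 1 lower, Gdf15, which fell from 6.95 to 2.09 CPM (-1.74), with a median of 0.14. Tgfbr2, Hif1a and Smad1 had the most UMIs.

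The counts of the lists depended on the clusters taken. In both erythroid-marker clusters, UAC against Control, 4.44% of genes were higher and 1.68% lower. Membrane genes had 1 of 19 higher and 0 lower there, haem and iron genes 1 of 24 and 1, and globins and chaperone 0 of 6 and 5. Transcription factors had 3 of 19 and 0, and late maturation genes 3 of 25 and 2. For UAC against Control in the cycling clusters, where 4.83% of genes were higher and 0.861% lower with a median log2 ratio of 0.10, membrane genes had 12 of 19 higher and 0 lower (median 0.96), transcription factors 7 of 19 and 0, haem and iron genes 6 of 24 and 0 (0.41), and late maturation genes 8 of 25 and 1. Globins and chaperone had 4 of 5 higher and 1 lower there, progenitor genes 3 of 13 and 0, stress factors 2 of 15 and 0, and EPO receptor signalling 1 of 25 and 0. For UAC_treatment against UAC in the cycling clusters, where 11.9% were higher and 2.28% lower, membrane genes had 9 of 19 higher and 0 lower, transcription factors 6 of 19 and 0, haem and iron genes 5 of 24 and 0, and late maturation genes 4 of 25 and 0. Globins and chaperone had 4 of 5 and 0, progenitor genes 2 of 14 and 1, stress factors 0 of 14 and 1, and EPO receptor signalling 3 of 25 and 0. Taking both erythroid-marker clusters for UAC_treatment against UAC, where 14.8% were higher and 3.07% lower, membrane genes had 14 of 19 and 0, late maturation genes 7 of 25 and 0, transcription factors 6 of 19 and 0, and haem and iron genes 6 of 24 and 1.

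The genes whose pattern over clusters was most like Epor were looked up among 12788 genes with at least 50 UMIs in every library, by Pearson correlation of log2(CPM + 1) over the 15, 18 and 19 clusters, ranked by the lowest of the 3 values. The clusters of a library share its cells and depth. The first 10 were LOC108348091, Tspo2, Sptb, Slc38a5, Klf1, Hemgn, Rhag, Epb42, Gfi1b and Tal1. The lowest correlation was 0.920 for LOC108348091, 0.909 for Tspo2, a protein of erythroid cells, 0.908 for Sptb, beta spectrin, and 0.894 for Klf1. Of the members measured beside Epor, 4 were among these 10, Slc4a1 had place 23 and Alas2 place 48 at 0.700. The order moved with the scale, and with a rank correlation 1 of the 10 genes was shared.

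Promoters are shown for Epor, Klf1 and Rhag, the 3 entries in which both words described below were found. Epb42, with 50.7%, 90.6% and 84.4% of its UMIs in the cycling clusters, has no CACCC in its window and is not shown. Windows from 250 bases before to 50 bases after a start were taken from RefSeq (assembly GRCr8), and 7 of the 8 genes had 8 entries. Of these 4, those of Epor, Klf1, Rhag and Epb42, had a start within 100 bases of the outer start of the gene, a limit chosen after the entries were seen. The entry of Alas2 starts 4800 bases inside its gene, and those of Gata1 and Hemgn also start inside, so these were left out of the first counts. Words of the GATA factors (GATA after A or T and before A or G) and of KLF factors (CACCC) were searched on both strands, and no match of the one overlapped a match of the other in the windows shown. A GATA word stood in 4 of the 4 entries, against 31.8% of 24679 promoters chosen in the same way. CACCC stood in 3 of 4, against 53.6%, and both stood in 3 of 4, those of Epor, Klf1 and Rhag, against 14.7%. Over all 8 entries GATA words stood in 6, CACCC in 4 and both in 3, against 30.3%, 54.9% and 14.3% of 33469 promoters, so CACCC was near its share over all promoters. A match is a run of letters and not a measured binding site. The windows are given 5′ to 3′ on the strand of the gene, with matches on either strand in capitals.
Epor, chr8:28770273-28770572, minus strand: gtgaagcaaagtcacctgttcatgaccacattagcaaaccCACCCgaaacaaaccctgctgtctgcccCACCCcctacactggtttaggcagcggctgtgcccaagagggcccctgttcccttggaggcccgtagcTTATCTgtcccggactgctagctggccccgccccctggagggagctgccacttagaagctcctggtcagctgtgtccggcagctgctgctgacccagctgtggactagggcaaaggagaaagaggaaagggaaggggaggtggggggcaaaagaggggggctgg
Klf1, chr19:40158602-40158901, minus strand: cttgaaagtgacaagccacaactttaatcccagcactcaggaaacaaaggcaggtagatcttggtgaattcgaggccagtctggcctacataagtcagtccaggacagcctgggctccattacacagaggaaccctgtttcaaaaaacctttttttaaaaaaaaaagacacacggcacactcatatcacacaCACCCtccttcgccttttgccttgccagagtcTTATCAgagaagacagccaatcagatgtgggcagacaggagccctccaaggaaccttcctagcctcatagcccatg
Rhag, chr9:27594341-27594640, minus strand: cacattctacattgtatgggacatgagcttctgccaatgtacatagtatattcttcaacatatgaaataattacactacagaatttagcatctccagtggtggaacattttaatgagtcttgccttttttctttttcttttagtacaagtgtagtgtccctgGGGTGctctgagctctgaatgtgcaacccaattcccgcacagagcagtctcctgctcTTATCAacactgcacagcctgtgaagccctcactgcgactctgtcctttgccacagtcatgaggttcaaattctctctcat

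The mature forms of miR-330, the microRNA named in the design of the treated group, are given with the seed (bases 2 to 8) in capitals, from RefSeq (GRCr8, plus strand), at chr1:87961227-87961248 and chr1:87961266-87961288. Their levels were not analysed here, since the libraries count polyadenylated transcripts.
rno-miR-330-5p: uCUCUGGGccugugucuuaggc
rno-miR-330-3p: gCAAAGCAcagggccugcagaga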

How the data were processed

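Single-cell 3′ libraries of 3 pooled groups were used, 1 library per condition. The protocol text mentions cell suspensions from cultured cell lines, although the source is given as cartilage and subchondral bone. The submitters' processing notes name Cell Ranger 7.0, STAR and Seurat 4.0.1 and the builds GRCh38 and mm10, neither of them a rat build. The authors deposited 1 table of clusters per library in which each mean count is normalized signal: whole UMIs over a divisor shared by all genes of that cluster. Dividing each column by its smallest value above 0 gave whole UMIs for 100% of values (within 0.01), and with 1 library per condition no count model could estimate a spread, so none was run. The deposited p-values and fold changes are between clusters inside a library and were not used. UMIs of identifiers that share a name were added. Genes named in the text were all members, the 3 genes of each of 8 pathway lists with the most UMIs and up to 3 called changes each way per comparison, marker genes with the most UMIs, and the 10 genes most like Epor, though not every gene this rule picks is named. Hbe1 by cluster, Gata2 by cluster and UAC_treatment cluster 18 were singled out after their values were seen. The members and lists were chosen with earlier results of these data known. The rule for erythroid-marker clusters was chosen with the tables already seen, from 2 versions tried: the version that leaves globins out of the count drops UAC cluster 13. The terms cycling and globin-high were also set after the data were seen. A count of 0 allows up to 3 counts, and a log2 ratio with a count of 0 uses that limit. Doublets and free RNA were not treated. Alternatives in scale, interval, minimum, fold and likeness were tried. Python 3.11.15, numpy 2.4.6, scipy 1.17.1 and pandas 2.3.3 were used, and the calculation was tested on simulated data.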

Additional observations from a re-analysis of the deposited data

How the results depend on the processing

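Of 345 values under alternatives 267 stayed within the counting interval (or within 1.5 times a count), and none of the 56 whole-library ratios of members under other scales or the 99% interval changed its call. Alternatives that use the cycling cluster alone, a cluster rule without globins, or median of ratios for the lists were chosen after seeing the data. Over those scales the log2 ratio of Epor ran from 0.03 to 0.09 for UAC against Control and from 0.36 to 0.49 for UAC_treatment against UAC. Of the 345 values 1 was reversed, that of Alas2, UAC against Control, from -2.01 in the erythroid-marker clusters to 1.95 in the cycling clusters. The globins and chaperone also changed side for UAC against Control, with median log2 ratios of -1.76 and 1.22 in the same cluster sets. The causes were not tested. No paired analysis was possible because there was 1 library per condition, each with replicate number 1. For UAC against Control the log2 ratio in the cycling clusters alone was Klf1 0.67, Alas2 1.95, Slc4a1 1.58, Rhag 1.11, Hemgn 0.93, Epb42 1.24. For UAC against Control the log2 ratio with the cluster rule without globins was Klf1 0.63, Alas2 -2.92, Rhag 0.79, Epb42 0.80. Klf1, Rhag and Epb42 gained a call there, with no share over all genes given for this rule. For UAC_treatment against UAC the log2 ratio in the cycling clusters alone was Klf1 0.41, Alas2 1.16, Slc4a1 1.14, Rhag 0.46. For UAC_treatment against UAC the log2 ratio with the cluster rule without globins was Klf1 0.27, Alas2 3.14, Rhag 0.34, Epb42 0.50, and Rhag and Epb42 lost their call. With median of ratios the log2 ratio of Klf1, UAC_treatment against UAC, was 0.36. In the single cluster highest in non-globin erythroid markers of Control, cluster 14, the shares were Epor 8.84%, Klf1 11.8%, Alas2 81.1%, Slc4a1 41.5%, Rhag 23.4%, Hemgn 23.8%, Epb42 27.4%. In the single cluster highest in non-globin erythroid markers of UAC, cluster 11, the shares were Epor 87.6%, Klf1 87.6%, Alas2 39.6%, Slc4a1 67.8%, Rhag 88.6%, Hemgn 80.9%, and the rule without globins gave the same values there. In the single cluster highest in non-globin erythroid markers of UAC_treatment, cluster 11, the shares were Epor 87.6%, Klf1 88.3%, Alas2 20.6%, Slc4a1 73.1%, Rhag 89.2%, Hemgn 82.9%, Epb42 84.4%. Epor UMIs per 1000 UMIs in the cycling cluster of Control were 4407 (Alas2), 1008 (Slc4a1), 1227 (Hemgn), 1608 (Epb42), 9.15 (erythroid markers without globins), and in its erythroid-marker clusters 8.31 against these markers. Epor UMIs per 1000 UMIs in the cycling cluster of UAC were 1551 (Alas2), 459 (Slc4a1), 6.97 (erythroid markers without globins), and in its erythroid-marker clusters 7.11 against these markers. Epor UMIs per 1000 UMIs in the cycling cluster of UAC_treatment were 918 (Alas2), 275 (Slc4a1), 8.34 (erythroid markers without globins), and in its erythroid-marker clusters 7.94 against these markers. Called at 2-fold, UAC against Control, where 2.32% of all genes were higher and 1.88% lower, the counts of genes were 0 higher (EPO receptor signalling), 1 higher (erythroid transcription factors), 0 higher (red cell membrane and skeleton), 0 higher (late erythroid maturation), 0 lower (late erythroid maturation), 1 higher (early erythroid and progenitor), 1 higher (stress erythropoiesis factors). Called at 2-fold, UAC_treatment against UAC, where 2.33% were higher and 0.897% lower, the counts of genes were 0 higher (EPO receptor signalling), 0 higher (erythroid transcription factors), 1 higher (haem synthesis and iron), 0 higher (early erythroid and progenitor), 0 lower (early erythroid and progenitor), 0 higher (stress erythropoiesis factors). With median of ratios, UAC_treatment against UAC, where 5.44% were higher and 4.74% lower, the counts of genes were 0 higher (EPO receptor signalling), 1 lower (EPO receptor signalling), 0 higher (early erythroid and progenitor), 0 higher (stress erythropoiesis factors). Of the 10 genes most like Epor 3 were shared under the pseudocount of 0.1, 5 were shared under the pseudocount of 10, 1 were shared under the Spearman correlation. Depth limits the width of the intervals, with 181 Epor UMIs and 146 Epb42 UMIs in Control.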
